A study of Mus musculus with 2 samples.

Results

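Cholesterol and fatty acid synthesis in mouse regulatory T cells is described here through 32 genes, chosen by name from the GENCODE M21 annotation and found among the 55536 named genes of the deposited gene tables. They comprise 7 genes of the mevalonate steps, 11 of the steps from squalene to cholesterol, 5 that encode the SREBP transcription factors or the proteins that hold them back or release them, 7 of fatty acid synthesis, elongation and desaturation, and 2 sterol exporters. All 32 are annotated as protein-coding. The study sequenced polyA-selected RNA from regulatory T cells, given as primary cells of a 9-week-old adult male mouse of the strain Foxp3GFP-DTRCD4CreERT2R26tdTomato, with the whole organism as their stated origin. By those allele names the strain marks Foxp3-expressing cells with green fluorescent protein and the diphtheria toxin receptor, carries a tamoxifen-inducible Cre recombinase under Cd4, and holds a red reporter at the Rosa26 locus. No treatment is labelled, the purification of the cells is not described in the labels, and no mouse without these alleles was part of the design. There was 1 group, with 2 technical replicate libraries of biological replicate 1, both fragmented by Covaris shearing. No condition can therefore be compared: levels are a description, and every test below compares these 2 libraries with each other.

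Cells build cholesterol from acetyl-CoA through mevalonate, farnesyl diphosphate, squalene and lanosterol, and farnesyl diphosphate also feeds the lipid anchors of small GTPases. When sterols in the endoplasmic reticulum are low, Scap carries the SREBP precursors to the Golgi, where they are cut to release transcription factors. When sterols are high, the Insig proteins retain Scap, while oxidised sterols activate LXR receptors, which switch on export. In regulatory T cells the mevalonate route and fatty acid synthesis are studied for their part in proliferation and suppressive function.

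The promoter sequences of these genes are shown first, because the same short elements recur in them. SREBP binds sterol regulatory elements weakly and usually works beside NF-Y, which binds the CCAAT box, or Sp1, which binds GC boxes. The RefSeq table of promoters (build GRCm38.p6) gives 250 bases before and 50 after each start, and held 34 promoters of 26 of the 32 genes. Fdps, Fdft1, Sqle, Scd1, Scd2 and Abcg1 have no entry. Each promoter was searched on both strands for CCAAT, the E-box CACGTG, the GC box GGGCGG and the sterol element core TCACNCCAC, none of which contains another. A CCAAT box was found for 21 of the 26 genes (80.8%), against 43.4% of the 8779 genes with a promoter that were detected in these cells and 41.1% of all 27025 genes in the table. Of the 15 genes on the route from acetyl-CoA to cholesterol with a promoter, 14 held one, and 12 of the 26 (46.2%) had a promoter with 2 or more, against 17.4% of detected genes. An E-box was found for 7 of 26 (26.9%) against 12.1% of detected genes, and a GC box for 21 of 26 (80.8%) against 68.0%. The sterol element core was found for 1 gene, Hmgcs1 (3.85%), against 1.40% of detected genes. By promoter, the CCAAT box was in 64.7% of the 34 and in 37.4% of all 32851, the E-box in 23.5% and 7.15%, the GC box in 73.5% and 35.7%, and the sterol core in 2.94% and 1.24%. Promoter windows of the same gene can overlap, and the same E-box of Scap was counted in both of its promoters. Each match is a run of letters, not a measured binding site.

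Below are 6 of these promoters, each up to the start or the nearest annotated exon. Hmgcs1 is shown for its sterol core, Mvk for the most CCAAT boxes, Ebp, Elovl5 and Fasn for pairs or triplets of them in highly expressed or central genes, and Insig1 because it had the highest ratio of technical replicate 2 over 1. They lie at chr13:119690101-119690350 on the plus strand (Hmgcs1), chr5:114444061-114444268 on the plus strand (Mvk), chrX:8193513-8193762 on the minus strand (Ebp), chr5:28071162-28071362 on the plus strand (Insig1), chr11:120824548-120824797 on the minus strand (Fasn) and chr9:77917115-77917363 on the plus strand (Elovl5). Capitals mark CCAAT in either orientation (ATTGG when inverted), the E-box and the sterol core.
Hmgcs1: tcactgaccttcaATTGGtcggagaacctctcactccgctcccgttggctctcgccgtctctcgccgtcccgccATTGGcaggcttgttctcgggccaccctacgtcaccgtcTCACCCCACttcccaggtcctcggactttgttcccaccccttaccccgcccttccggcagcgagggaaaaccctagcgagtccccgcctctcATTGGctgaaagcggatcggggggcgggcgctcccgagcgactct
Mvk: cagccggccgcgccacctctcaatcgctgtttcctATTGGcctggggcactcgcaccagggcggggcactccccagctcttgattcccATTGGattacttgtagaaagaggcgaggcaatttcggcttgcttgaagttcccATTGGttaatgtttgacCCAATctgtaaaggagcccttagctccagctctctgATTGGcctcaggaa
Ebp: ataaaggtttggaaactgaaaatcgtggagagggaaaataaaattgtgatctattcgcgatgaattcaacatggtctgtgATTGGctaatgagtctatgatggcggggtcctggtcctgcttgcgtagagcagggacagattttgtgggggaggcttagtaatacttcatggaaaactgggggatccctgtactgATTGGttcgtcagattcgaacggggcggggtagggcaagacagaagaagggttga
Insig1: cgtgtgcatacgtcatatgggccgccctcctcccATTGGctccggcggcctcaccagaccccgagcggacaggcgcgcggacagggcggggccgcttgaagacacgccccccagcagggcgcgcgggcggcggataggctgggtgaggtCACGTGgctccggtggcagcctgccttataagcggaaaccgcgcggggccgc
Fasn: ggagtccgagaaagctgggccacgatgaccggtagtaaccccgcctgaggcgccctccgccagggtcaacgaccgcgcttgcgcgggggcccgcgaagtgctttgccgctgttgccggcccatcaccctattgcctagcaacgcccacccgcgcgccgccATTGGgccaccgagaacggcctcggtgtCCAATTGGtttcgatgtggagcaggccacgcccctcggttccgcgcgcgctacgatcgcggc
Elovl5: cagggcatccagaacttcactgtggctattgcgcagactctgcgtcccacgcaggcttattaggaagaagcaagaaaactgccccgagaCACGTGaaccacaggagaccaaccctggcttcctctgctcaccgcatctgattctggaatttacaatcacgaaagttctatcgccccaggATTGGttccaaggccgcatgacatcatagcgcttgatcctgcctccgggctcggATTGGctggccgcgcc
In Hmgcs1 the sterol core begins at position -137, counted from the start, between inverted CCAAT boxes at -176 and -45. Mvk holds 4 inverted boxes, at -173, -120, -67 and -14, each 53 bases from the next, and a forward box at -50. In Fasn a forward box at -62 and an inverted box at -59 overlap, with a further inverted box at -90. Insig1 has an inverted box at -216 and an E-box at -101, and Elovl5 has an E-box at -161 with inverted CCAAT boxes at -71 and -17. Over all 34 promoters, 41 CCAAT boxes lay before the start, 29 of them inverted and 28 within 100 bases of it. These shares were not computed for the promoters of other genes, so they are not shown to be particular to the lipid genes.

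**Figure D1:**
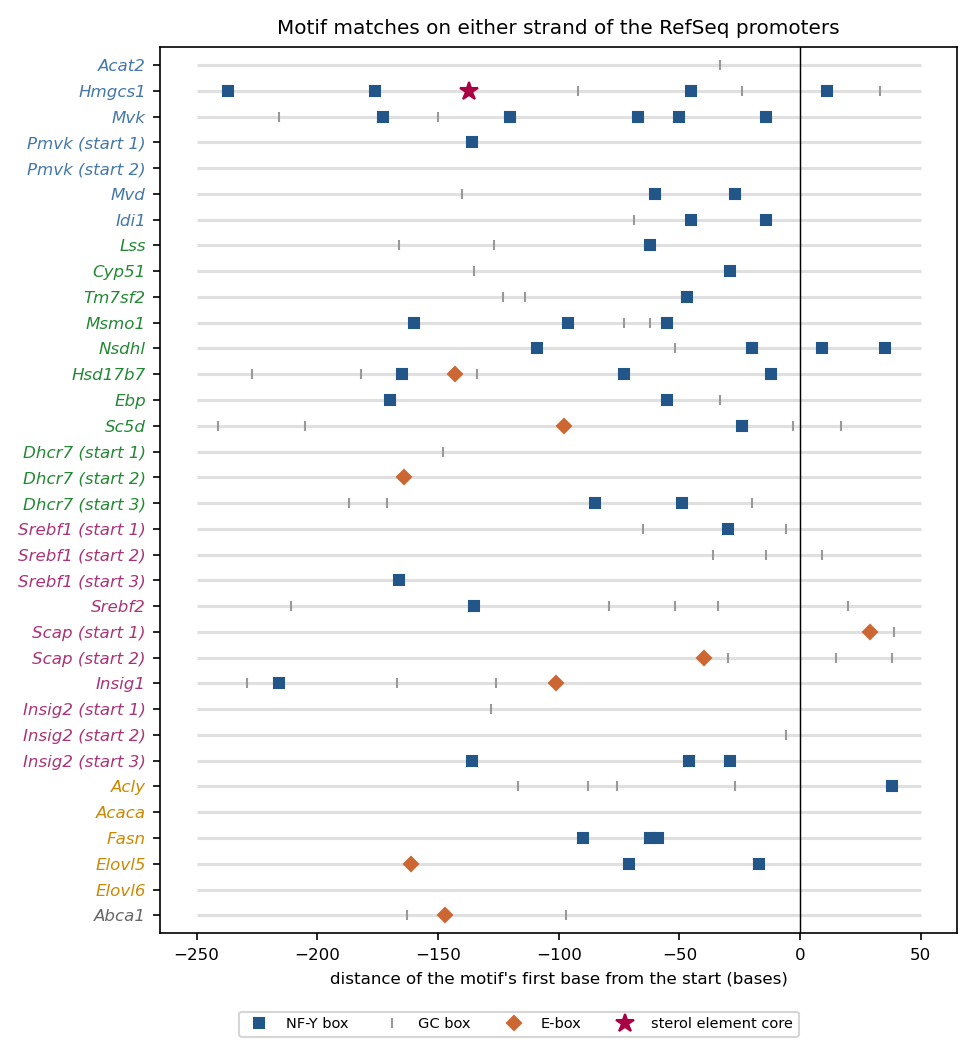
Positions of motif matches in the 34 promoters, with the distance in bases from the start on the x axis and 1 line per promoter, coloured by role as in the other plots; squares are CCAAT (NF-Y) boxes, ticks GC boxes, diamonds E-boxes and the star the sterol element core. Of 41 CCAAT boxes before the start, 28 lie within 100 bases of it, a share not computed for other genes. CCAAT boxes are missing from the single promoters of Acat2, Acaca, Elovl6 and Abca1.

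The libraries held 20891069 and 18571065 reads assigned to named genes, as estimated counts. All 7 regulatory T cell markers were detected, from Foxp3 at 88.6 and 83.6 TPM to Trac at 3019 and 2542 TPM. TPM is a share of all transcripts, scaled for transcript length, and a gene is called detected here at 1 TPM or more in both libraries. Of other cell types, hepatocyte markers were detected for 0 of 3 genes, with Alb and Ttr at 0 counts, and adipocyte markers for 0 of 4. Macrophage or monocyte markers were detected for 5 of 6, with a summed level of 35.9 and 27.1 TPM, B cell markers for 2 of 5 (41.3 and 40.9 TPM in sum, mostly Cd79b) and dendritic cell markers for 1 of 5 (2.20 and 1.76 TPM). In such bulk libraries, a change in the number of cells of a type and a change in RNA per cell cannot be told apart.

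Of the 32 genes, all protein-coding, 31 were detected. The closer background is 10472 detected of the 22028 named protein-coding genes. Over all 55536 named genes, which include non-coding ones, 12980 were detected (23.4%). The median of their mean level was 39.3 TPM, against 19.1 TPM over all detected genes and 25.5 TPM over detected protein-coding genes, and 21 of them lay above the latter value. A mean of at least 10 TPM was reached by 28 and of at least 100 TPM by 4. These 4 were Acly at 171 ± 6.57 TPM, Elovl5 at 169 ± 8.91 TPM, Srebf2 at 158 ± 11.0 TPM and Ebp at 136 ± 2.84 TPM (mean ± SD, n = 2 technical libraries). The library values of Acly and Elovl5 overlapped, as did those of Elovl5 and Srebf2, while those of Srebf2 and Ebp did not. Within each library the 4 genes kept this order, with Acly and Elovl5 close at 175.6 and 174.9 TPM in technical replicate 2. At the low end were Scd1, Abca1, Acaca and Hsd17b7.

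**Figure D2:**
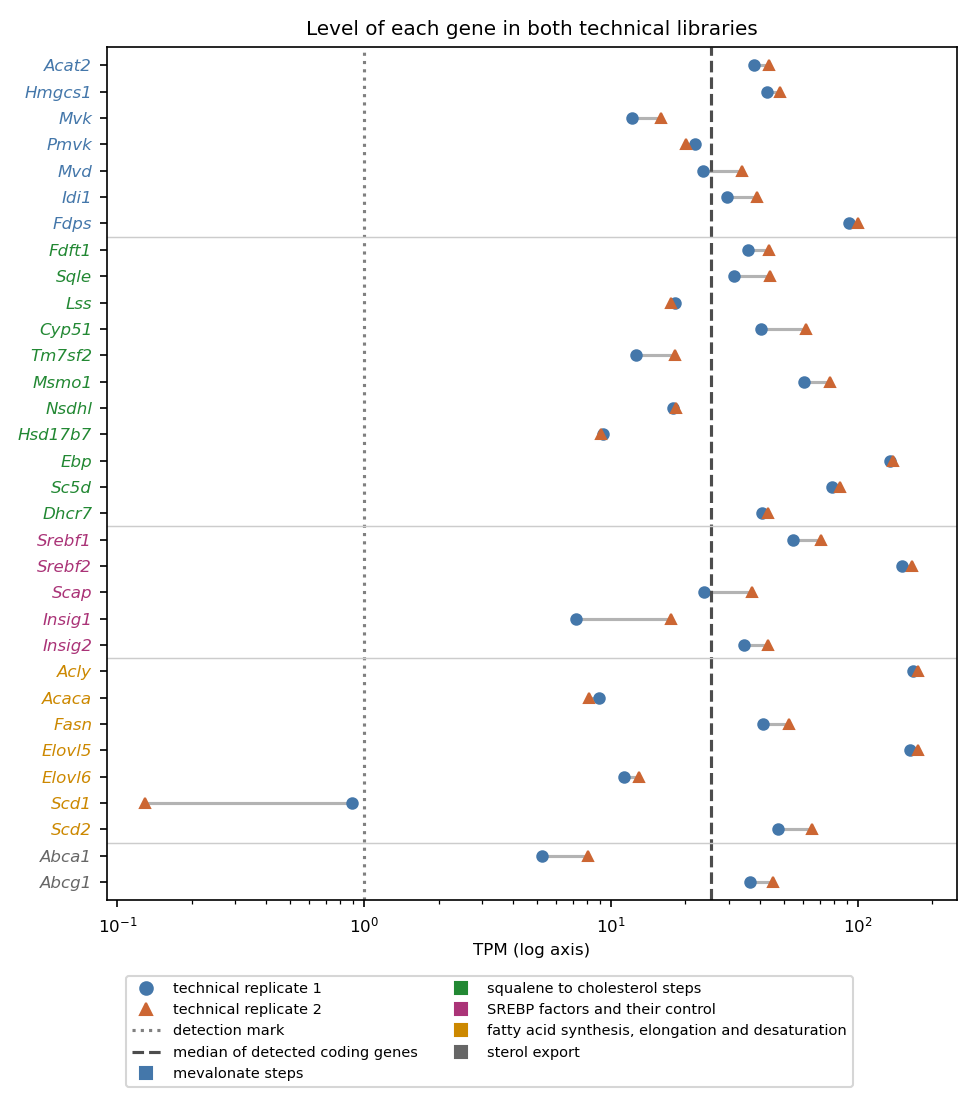
Level in TPM (log axis) of each gene in technical replicate 1 (circles) and 2 (triangles), ordered by role, with the 1 TPM detection mark (dotted) and the median of detected protein-coding genes at 25.5 TPM (dashed). Scd1 is the only gene left of the detection mark, and Acly, Elovl5, Srebf2 and Ebp lie furthest right.

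Each gene's counts in the 2 libraries were then set against each other in an exact binomial test (two-sided), which asks whether they differ by more than counting error, with Benjamini-Hochberg adjustment over all 16553 genes with at least 10 counts. It called 22 of the 32 genes at an adjusted p below 0.05, 21 higher and 1 lower in technical replicate 2. Over all genes tested it called 34.1% (21.4% higher and 12.7% lower). The median log2 ratio of technical replicate 2 over 1 was 0.26 for the 32 genes and 0.02 over all genes tested, whose middle range between quartiles ran from -0.18 to 0.36. Above the upper quartile were 10 of the 32, and 1 was below the lower quartile. Because these genes are well counted, a closer background is the 8645 genes with at least 400 counts over both libraries, a mark chosen after the data were seen: there 50.8% were called, 31.8% higher and 19% lower, and 21 of 31 of the lipid genes were called, all higher. With the trend of the log2 ratio on GC content removed, 20 of 32 were called higher and 1 lower, against 21.4% and 10.6% of all genes (32% in either direction), and their median was 0.21. In the shallower older tables, with 6047614 and 5889818 counts, 11 of 31 were called, all higher, against 26.5% of all genes there (19% higher and 7.53% lower). Calls lost there, with the sign kept, were those of Acat2, Fdft1, Lss, Tm7sf2, Msmo1, Hsd17b7, Srebf2, Acly and Elovl5. Idi1, at 12 and 9 counts there, changed sign and was not called. The test knows no spread beyond counting. With edgeR's exactTest and an assumed dispersion of 0.01, 3 genes (Scap, Insig1 and Abca1) were called higher and 1 (Scd1) lower, against 9.29% and 1.49% of all genes (10.8% in either direction). With an assumed dispersion of 0.04, which is a coefficient of variation of 20% between libraries, 0 of the 32 were called, against 0.35% higher and 0.356% lower over all genes (0.707%). The direction of calls over all genes also depends on the scaling: higher calls made up 62.7% of all calls under TMM scaling, 54.4% under the size factors of DESeq2 and 48.1% when total counts set the scale, and the lipid genes called higher were then 21, 19 and 17, with 1 called lower in each case. Against these stand 36% of all genes called under the DESeq2 size factors (19.6% higher and 16.4% lower) and 38.3% by total counts (18.4% higher and 19.9% lower). The summed level of the 32 genes was 1489 and 1735 TPM in technical replicates 1 and 2. Over the same pair the 6 macrophage or monocyte markers summed to 35.9 and 27.1 TPM, with 2 called lower and 0 higher. The 7 regulatory T cell markers summed to 5518 and 4872 TPM, with 3 called lower (Trac, Cd3e and Il2ra) and 0 higher. With the GC trend removed, 2 of these 7 were called higher and 3 lower, while the macrophage or monocyte markers kept 0 higher and 2 lower. The part of either cell type's share in the result was not tested.

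**Figure D3:**
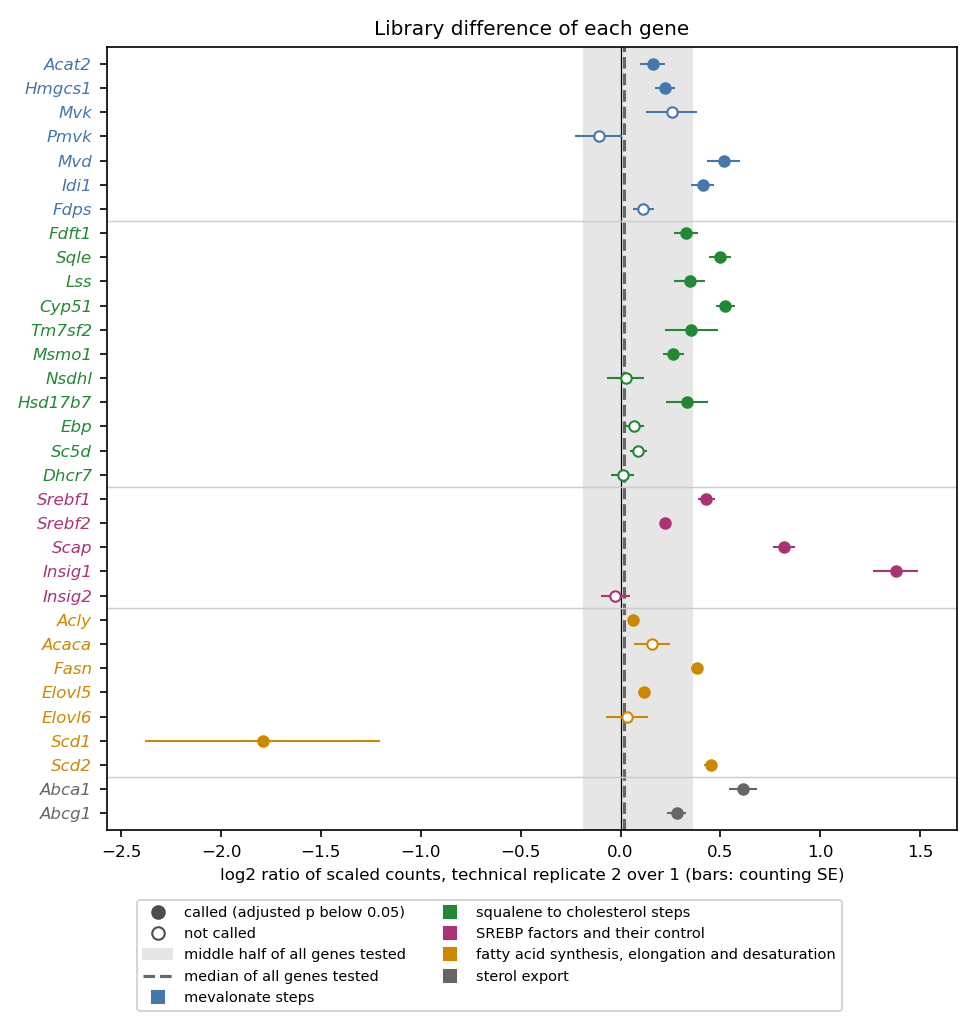
Log2 ratio of scaled counts, technical replicate 2 over 1, for each gene, with counting standard errors as bars; filled points were called by the exact binomial test, and grey marks the range between the quartiles of all genes tested, -0.18 to 0.36. Insig1 and Scap stand furthest right and Scd1 furthest left, with the widest bar.

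The 7 genes of the mevalonate steps were all detected, with means from 14.1 to 95.9 TPM, and 4 were higher in technical replicate 2 with 0 lower, against 21.4% and 12.7% of all genes tested and 31.8% and 19% of those with at least 400 counts (median log2 ratio 0.22). Acat2, the cytosolic thiolase that joins acetyl-CoA units, stood at 37.9 and 43.5 TPM in technical replicates 1 and 2. Hmgcs1, the cytosolic synthase of the next step, stood at 42.6 and 48.3 TPM, from 1777 and 1763 estimated counts; it lies at chr13:119690379-119708260. Both were called higher, with log2 ratios of 0.16 ± 0.06 and 0.22 ± 0.05 (counting SE), the former with an adjusted p of 0.032 by the exact binomial test. The call of Acat2 was lost under the size factors of DESeq2 (adjusted p = 0.11), total counts (0.24) and with no count minimum (0.055), all by the exact binomial test. The kinases that phosphorylate mevalonate were lower in level: Mvk stood at 12.2 and 15.9 TPM and Pmvk, which adds the next phosphate, at 21.8 and 20.2 TPM. Neither was called. Mvd, the decarboxylase that yields isopentenyl diphosphate, rose from 23.5 to 33.9 TPM, with 573 and 697 counts and a log2 ratio of 0.52 ± 0.08, or 0.30 with the GC trend removed and 0.28 in the older tables. Idi1, the isomerase of that product, rose from 29.6 to 38.9 TPM, with a log2 ratio of 0.41 ± 0.06. Fdps, which makes farnesyl diphosphate at the branch point, was the highest of the group at 91.6 and 100 TPM and was not called (log2 ratio 0.11 ± 0.05, adjusted p = 0.074 by the exact binomial test). Fdps was at 3.10 and 2.57 times the TPM of Idi1. Both libraries thus held the same order at the top of this group, Fdps before Hmgcs1 before Acat2, and the 2 kinases at the bottom.

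The 11 genes that lead from squalene to cholesterol were all detected, from a mean of 9.17 TPM for Hsd17b7 to 136 TPM for Ebp, and 7 were higher in technical replicate 2 with 0 lower (median log2 ratio 0.33). The shares over all genes tested were 21.4% and 12.7%, and over genes with at least 400 counts 31.8% and 19%. Fdft1, the squalene synthase that commits farnesyl units to sterols, stood at 35.7 and 43.4 TPM and was called higher. Sqle, the epoxidase and a known control point of the route, rose from 31.3 to 44.1 TPM, or 1208 to 1451 counts (log2 ratio 0.50 ± 0.06). Lss, which folds the epoxide into lanosterol, stood at 18.1 and 17.5 TPM while its counts went from 646 to 698. Its count ratio was called higher (0.35 ± 0.08) although its TPM was not, and its effective length differed between the libraries, as described with the transcripts. Cyp51, the lanosterol demethylase, rose from 40.3 to 61.3 TPM (log2 ratio 0.52 ± 0.05). Tm7sf2, the sterol reductase that follows it, stood at 12.6 and 18.2 TPM from 230 and 250 counts and was called higher at an adjusted p of 0.027 by the exact binomial test, a call lost with the GC trend removed (adjusted p = 0.13, exact binomial test) and by total counts (adjusted p = 0.076, same test). The same reductase activity resides in Lbr, the lamin B receptor of the inner nuclear membrane, which stood at 299 and 286 TPM.

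Of the enzymes that strip the methyl groups from the sterol ring, Msmo1, the oxidase, stood at 60.3 and 77.2 TPM and was called higher. Nsdhl, the decarboxylating dehydrogenase, stood at 17.9 and 18.4 TPM and was not called. Hsd17b7, the keto-reductase of that complex, was the lowest of the route at 9.27 and 9.06 TPM, with 371 and 397 counts and a count ratio called higher (0.33 ± 0.10). The late enzymes were close between libraries, with Ebp and Sc5d the highest of the 11 genes in each. Ebp, the isomerase that moves the ring double bond, stood at 134 and 138 TPM, Sc5d, the desaturase after it, at 78.3 and 84.8 TPM, and Dhcr7, the reductase that ends one branch of the route, at 40.9 and 43.2 TPM. None of these 3 was called, with log2 ratios of 0.07 ± 0.05, 0.09 ± 0.04 and 0.01 ± 0.06, though Sc5d was called higher once the GC trend was removed (log2 ratio 0.14, adjusted p = 0.0038, exact binomial test). Ebp stood at 14.5 and 15.3 times the TPM of Hsd17b7, the widest ratio within the route.

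The 5 genes of the SREBP factors and their control were all detected. In technical replicate 2, 4 were higher and 0 lower, against 21.4% and 12.7% of all genes tested, with a median log2 ratio of 0.43, or 0.22 with the GC trend removed. Over genes with at least 400 counts the shares were 31.8% and 19%. Srebf2, the factor that favours cholesterol genes, stood at 151 and 166 TPM from 7579 and 7523 counts. Srebf1, whose products favour fatty acid genes, stood at 54.6 and 71.0 TPM, so that Srebf2 was at 2.76 and 2.34 times its level. Both were called higher, with log2 ratios of 0.22 ± 0.02 and 0.43 ± 0.04. With the GC trend removed these were 0.11 and 0.22, and the older tables gave 0.067, not called, and 0.26. Scap, the sterol sensor that escorts both, rose from 23.8 to 37.2 TPM, from 1143 to 1716 estimated counts (log2 ratio 0.82 ± 0.06, adjusted p = 1.34e-49 by the exact binomial test).

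Insig1, the retention protein that is itself a well-known SREBP target, lies at chr5:28071363-28078662 and had the highest ratio of technical replicate 2 over 1 of the 32 genes. It stood at 7.20 and 17.5 TPM, from 232 and 513 counts, a log2 ratio of 1.38 ± 0.11 (adjusted p = 7.45e-35 by the exact binomial test), and 1.40 with the GC trend removed. The older count tables, made on GENCODE M4, held 53 and 113 counts for it. Insig2, its paralog, which is not a strong SREBP target, stood at 34.5 and 43.4 TPM from 906 and 757 counts, and its count ratio was not called (-0.03 ± 0.07). Insig2 therefore exceeded Insig1 by 4.79 times in technical replicate 1 and 2.48 times in technical replicate 2. Insig1 was the lowest of the 5 control genes in both libraries.

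Of the 7 fatty acid genes, 6 were detected, 4 were higher and 1 was lower in technical replicate 2, against 21.4% and 12.7% of all genes tested (median log2 ratio 0.12). Of genes with at least 400 counts, 31.8% were higher and 19% lower. Acly, which splits citrate into the cytosolic acetyl-CoA that both routes use, was the highest of all 32 at 166 and 176 TPM, from 9585 and 8505 counts. Its ratio was called at 0.06 ± 0.02, with an adjusted p of 0.016 by the exact binomial test, but was 0.03 with DESeq2 size factors and -0.0026 by total counts, and it was called under neither of these nor with the GC trend removed (adjusted p = 0.068, exact binomial test). Acaca, the carboxylase that makes malonyl-CoA, was low at 8.89 and 8.15 TPM and was not called. Fasn, the synthase that builds palmitate, rose from 41.1 to 52.6 TPM, with 4762 and 5273 counts (log2 ratio 0.38 ± 0.03, or 0.22 with the GC trend removed). Acly stood at 18.7 and 21.5 times the TPM of Acaca and 4.05 and 3.34 times that of Fasn.

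Among the elongases, Elovl5, which lengthens polyunsaturated chains, stood at 162 and 175 TPM, 14.4 and 13.4 times the 11.3 and 13.0 TPM of Elovl6, which lengthens palmitate to stearate. Elovl5 was called higher by a small margin (log2 ratio 0.12 ± 0.03; not called by total counts, adjusted p = 0.12, exact binomial test) and Elovl6 was not called. Of the desaturases that place the double bond in oleate, Scd2 stood at 47.6 and 65.3 TPM from 3633 and 4223 estimated counts and was called higher (log2 ratio 0.45 ± 0.03). Scd1, the main form in liver, was listed at 0.89 and 0.13 TPM, from 30.1 and 7.24 estimated counts, under the detection mark in both libraries. It was the single gene called lower (log2 ratio -1.79 ± 0.59, adjusted p = 0.0045 by the exact binomial test). The deposited credibility bounds of its posterior mean TPM, 0.463 to 2.19 and 0.104 to 1.14, overlap. Scd1 and Scd2 are closely related neighbours on chromosome 19, so that reads shared between them could be divided either way, and the Scd1 value is uncertain.

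Of the exporters, Abca1, which loads cholesterol on apolipoprotein, stood at 5.24 and 8.04 TPM from 756 and 983 counts, a log2 ratio of 0.61 ± 0.07. Abcg1, which passes it to mature lipoprotein particles, stood at 36.7 and 45.3 TPM (log2 ratio 0.28 ± 0.05). Both were called higher, against 21.4% of all genes tested and 31.8% of those with at least 400 counts. Abcg1 was at 7.00 and 5.64 times the TPM of Abca1.

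The transcript tables show how each gene was divided between annotated transcripts, as an estimate from reads that several transcripts share. All 32 genes have 2 or more annotated transcripts. The leading transcript took a median of 67.1% of its gene's TPM, against 62.3% over the 9682 detected protein-coding genes with 2 or more transcripts. It was a coding transcript for 31 of 32, while for 14.7% of those other genes it was not. Coding transcripts together took a median of 94.3% and 94.7% of the TPM of the 32 genes, against 83.5% and 84.0%. In both libraries 6 genes had over 90% in 1 transcript. Scd2-201 and Abca1-201 took 100% in both, Nsdhl-201 100% and 98.7%, Elovl5-201 96.5% and 97.3%, Sqle-201 94.7% and 96.2%, and Idi1-201 92.7% and 94.3%.

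The exception was Ebp, where Ebp-202, a retained-intron transcript of 2 exons, took 49.3% and 46.7%, ahead of the short coding Ebp-203 at 43.4% and 43.3% and the longest coding form, Ebp-201, at 6.97% and 9.34%. Of the 136 TPM of Ebp, transcripts not annotated as coding thus held 66.2 and 64.6 TPM in Ebp-202 alone. Coding transcripts took less than 75% in both libraries for 5 genes, against 34.2% of the comparison genes. These were Fdft1 (65.9% and 70.1%), Lss (37.3% and 52.4%), Msmo1 (60.4% and 49.8%), Ebp (50.4% and 52.6%) and Srebf1 (63.9% and 64.8%). In Fdft1 the remainder was Fdft1-202, annotated for nonsense-mediated decay, at 34.1% and 29.9%. In Msmo1 the non-coding remainder was 39.6% and 50.2%, most of it the processed transcript Msmo1-206 at 31.0% and 45.9%, whose 18.7 and 35.5 TPM held nearly the whole difference of the gene, since the coding Msmo1-201 stood at 35.2 and 36.6 TPM. Acly was divided evenly between Acly-203 and Acly-207, at 48.0% and 46.9% against 47.4% and 47.2%. Abcg1 was split between Abcg1-201 (49.9% and 49.0%) and the short Abcg1-204 (43.8% and 44.5%).

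The leading share moved by 10 points or more between the libraries for 8 genes (25% of 32), against 27.9% of the comparison genes. It grew for Lss, Hsd17b7, Scap and Scd1 and fell for Tm7sf2, Msmo1, Insig2 and Elovl6. Tm7sf2-201 went from 56.1% to 29.1% and Elovl6-205 from 47.7% to 28.2%. In Lss, the 22-exon Lss-201 went from 37.3% to 52.5% as a 2-exon retained-intron form, Lss-205, went from 24.4% to 8.82%. In Hsd17b7, a processed transcript of 810 bases, Hsd17b7-204, went from 40.7% to 0%, and Hsd17b7-201 from 54.8% to 76.5%. Such shifts change the mean transcript length that TPM divides by: the effective length rose by 31.9% for Lss, 29.1% for Hsd17b7 and 21.98% for Acaca and fell by 21.6% for Insig2. These were the 4 genes whose TPM and count ratios pointed different ways, with the TPM of Lss, Hsd17b7 and Acaca slightly lower in technical replicate 2 and that of Insig2 higher. The widest change was that of Scd1, at few counts: its effective length rose by 100.6% as its leading share went from 46.7% to 100%, so that its TPM in technical replicate 2 was 0.146 of that in technical replicate 1 and its scaled counts 0.289. For Insig1 and Scap the coding form moved with the gene. Insig1-201 stood at 5.84 and 15.7 TPM and the retained-intron Insig1-202 at 1.36 and 1.81 TPM, and Scap-201 stood at 18.2 and 33.0 TPM. In Srebf1, Srebf1-201, the single listed transcript with 19 exons, took 48.9% and 55.8%, while a processed transcript of 367 bases that begins further upstream, Srebf1-204, took 26.4% and 16.4%. Srebf1-207, a coding transcript of 18 exons that begins further downstream than Srebf1-201, took 10.45% and 7.9%. No transcript of full length begins at the upstream start of Srebf1-204 in this annotation, so the shares do not measure how far that start is used.

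**Figure D4:**
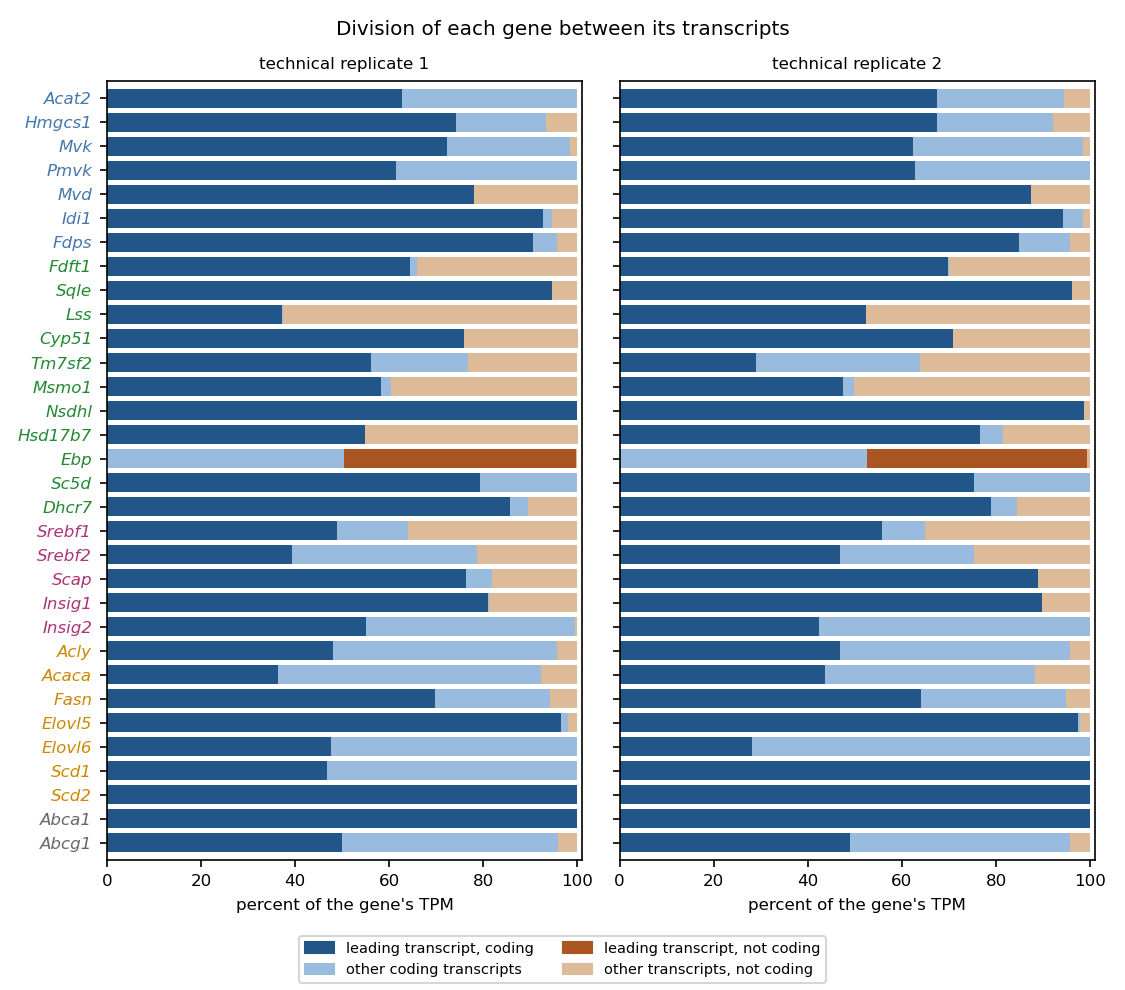
Percent of each gene's TPM taken by its leading transcript and by other coding and non-coding transcripts, in technical replicates 1 (left) and 2 (right). Ebp is led by a non-coding transcript in both panels. The leading share of Lss and Hsd17b7 grows from left to right, while that of Tm7sf2 and Elovl6 shrinks.

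Exons of 11 of the 32 genes overlap an exon of another gene in the annotation, 8 of them one on the opposite strand, and whether the counting used strand is not given in the sources used here. Where the neighbour is itself expressed the value is uncertain. Fdft1 overlaps Ctsb (435 and 390 TPM), Cyp51 overlaps Akap9 (136 and 147 TPM), Tm7sf2 overlaps Vps51 on the same strand (59.2 and 83.1 TPM) and Srebf1 overlaps Rai1 (7.96 and 8.19 TPM). The neighbours of Hmgcs1, Idi1, Fdps, Lss, Scap and Elovl6 stood below 1 TPM in both libraries. Idi1 was also the gene on which the deposited tables differed most: the older tables held 12 and 9 counts for it against 1174 and 1328 in the newer ones, or 1.02% and 0.678%, while for Scap they held 80.4% and 78.7%. The cause was not tested.

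Neighbouring pathways were read from lists that name further genes of each, and their counts stand beside 34.1% of all genes called, 21.4% higher and 12.7% lower. Over genes with at least 400 counts 50.8% were called, 31.8% higher and 19% lower. The 16 genes listed for the isoprenoid branches mostly concern the use of isoprenoid units outside sterol synthesis. The list also holds Lbr, Acat1 and Idi2, which do not. Of these 16 genes 15 were detected, and 2 were higher and 4 lower of 15 tested (median log2 ratio -0.03). In either direction 6 were called, a share not far from that over all genes. More were lower than higher, unlike over all genes tested under TMM scaling. By total counts 18.4% of all genes were higher and 19.9% lower. Removing the GC trend left 2 higher and 2 lower, with a median of 0.07. The highest were Lbr, described above, which fell by 0.06 in log2 ratio, and Ggps1, which makes the geranylgeranyl anchor, at 78.9 and 78.4 TPM. Of 8 genes of SREBP cleavage and sterol-regulated degradation, 8 were detected, 4 were higher and 0 lower (median 0.12). Mbtps1, the Golgi protease that makes the first cut in SREBP, stood at 91.6 and 100 TPM, and Pgrmc1, a haem-binding partner of sterol enzymes, at 59.0 and 58.0 TPM. Of 19 genes of sterol uptake, transfer, esterification and LXR signalling, 14 were detected, and 7 were higher and 2 lower of 16 tested (median 0.19). Gramd1a, a sterol transfer protein, rose from 155 to 259 TPM, and Nr1h2, which encodes LXR beta, from 114 to 131 TPM. Nr1h3, which encodes LXR alpha, stood at 1.51 and 0.94 TPM, and Ch25h, which makes an oxysterol, was at 0 counts in both libraries.

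Of 25 further fatty acid synthesis genes 13 were detected, and 6 were higher and 1 lower of 16 tested (median 0.13). Tecr, the reductase that ends each elongation cycle, stood at 455 and 428 TPM, and Elovl1, which makes very long saturated chains, at 146 and 157 TPM. Elovl2 and Elovl3 were at 0 counts in both libraries, as was Scd3; a count of 0 allows up to 3 counts a library by counting error alone. Of 16 genes of fatty acid oxidation 15 were detected, and 1 was higher and 5 lower of 16 tested (median -0.04), also with the GC trend removed. In either direction that share is close to the 34.1% called over all genes. Over all genes under TMM scaling, however, more were higher (21.4%) than lower (12.7%). Over genes with at least 400 counts 31.8% were higher and 19% lower. That direction depends on the scaling, since by total counts 18.4% of all genes were higher and 19.9% lower. Hadhb and Acaa2, thiolases of the mitochondrial cycle, stood at 182 and 173 TPM and at 144 and 152 TPM. The oxidation list thus had a median of 51.9 TPM, against 39.3 TPM for the 32 genes of synthesis and export, 25.4 TPM for the isoprenoid branches and 3.25 TPM for the further fatty acid genes. Whether the lists differ from each other was not tested.

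**Figure D5:**
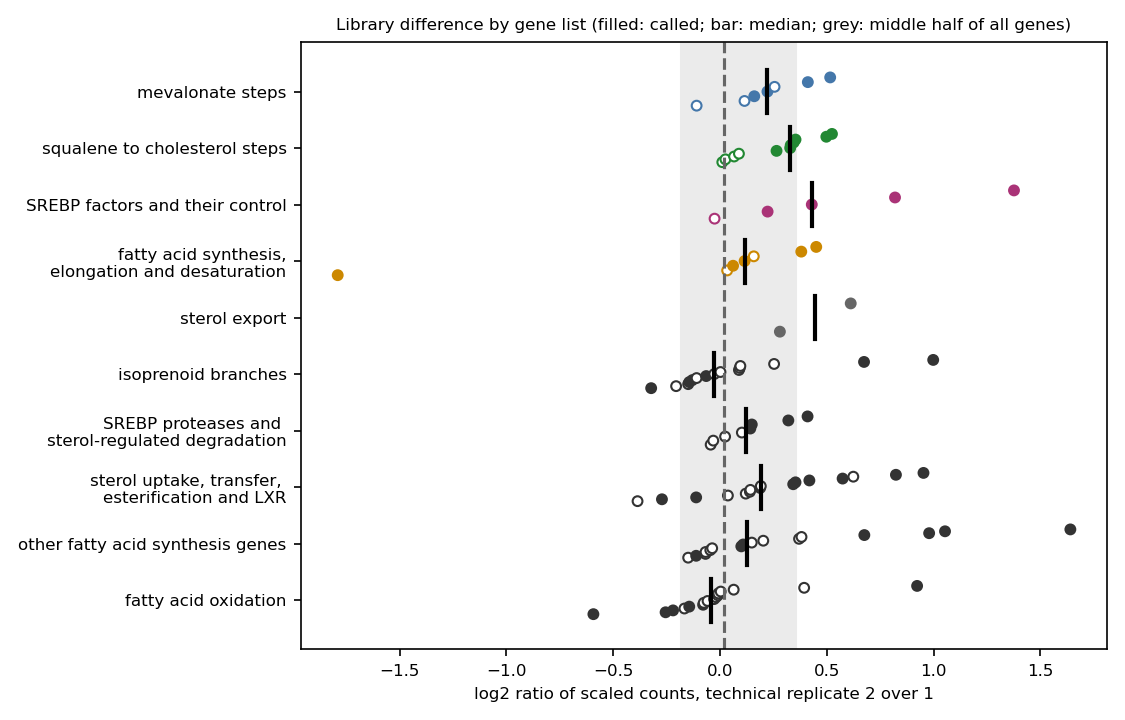
Log2 ratio of scaled counts, technical replicate 2 over 1, for each gene tested, by role of the 32 genes (coloured, upper 5 lines) and by related list (dark, lower 5 lines); filled points were called by the exact binomial test, bars are medians, grey is the range between quartiles of all genes tested and the dashed line their median, 0.02. Medians run from -0.04 for fatty acid oxidation to 0.45 for the 2 export genes.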

How the data were processed

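Gene and transcript tables of both technical libraries were used. Per the deposited text descriptions, the authors made the newer tables on mm10 with GENCODE M21 and the older ones with GENCODE M4; which aligner and quantifier they ran is not given in the sources used here. Deposited expected counts, per the file headers, divide shared reads between genes and were rounded for the test. The authors' TPM and FPKM values are scaled by effective length, and the deposited percent values give each transcript's part of its gene. The older tables hold the authors' whole-number counts, 6047614 and 5889818 in total. The authors' credibility bounds of TPM were read as a signal with no level stated, per the file headers. Rows naming no gene held 0.307% and 0.242% of the estimated counts and were left out.

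The libraries were compared with a two-sided exact binomial test per gene, given the gene's total, with the expected share from TMM library sizes (edgeR 4.0.16, R 4.3.3), at least 10 counts, 0.5 added for log2 ratios, and Benjamini-Hochberg adjustment over all genes (scipy 1.17.1). The test covers counting error between these technical libraries only. With 1 library a side, the quasi-likelihood test of edgeR has no residual degrees of freedom and was not run. The procedure was tried on simulated counts with known changes and counting error only. That trial cannot show how the test performs on libraries that vary beyond counting error. DESeq2 1.42.0 size factors, total counts, other minimums, posterior mean counts, the older tables, removal of a GC trend (lowess, statsmodels 0.14.6) and edgeR's exactTest with assumed dispersions were alternatives. A planned comparison of paralog proteins was not run.

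The members and lists were chosen with earlier results of these data known. All members are named, with the 2 highest genes of each related list and up to 2 genes at 0; Scd3 and Nr1h3 were named after their values were seen. Promoter sequences are from RefSeq (GRCm38.p6), matched by symbol.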

Additional observations from a re-analysis of the deposited data

How the results depend on the processing

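No paired analysis was possible because the labels give 1 group. The 31 genes detected stayed 31 under all 6 alternatives run, including each library alone, and the median level ran from 35.1 to 43.4 TPM with 1 library left out. The median leading transcript share ran from 67.0% to 68.7% with 1 library left out and was 62.7% from posterior mean values. Calls over all genes were 3062 with the older tables, 1784 with an assumed dispersion of 0.01 and 117 with 0.04, against 5640. Calls among the 32 genes were 11 (11 higher, 0 lower, of 31 tested), 4 (3 higher) and 0 (0 higher, 0 lower) under the same settings, against 22. With a minimum of 50 counts Scd1 was no longer tested, leaving 0 lower. The members' median log2 ratio was 0.20 with total counts and 0.15 with the older tables, against 0.26. Signs reversed for Nsdhl (-0.0093 with DESeq2 size factors, -0.038 with total counts, -0.083 with the older tables), Dhcr7 (-0.024, -0.053 and -0.10 in that order, and -0.0092 with the GC trend removed), Elovl6 (-0.0011, -0.030 and -0.18), Acly (-0.0026 with total counts), Insig2 (0.0025 with the GC trend removed) and, with the older tables, Idi1 (-0.28), Fdps (-0.094), Ebp (-0.058) and Acaca (-0.15). Of these 9 genes Idi1 (0.41) and Acly (0.06) were called in the main test. In the older tables Idi1 held only 12 and 9 counts and was not called (adjusted p = 0.93, exact binomial test). The cause of the reversals was not tested. Depth limits Scd1, whose 30.1 and 7.24 estimated counts carry the widest error.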

Other observations

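The genes given here were chosen after their values were seen. Slc25a1, the mitochondrial citrate carrier, stood at 12.9 and 27.8 TPM (technical replicates 1 and 2), with 279 and 493 counts. Acss2, which makes acetyl-CoA from acetate, stood at 29.8 and 49.5 TPM. Acsl3, which activates fatty acids, stood at 57.0 and 152 estimated counts. Hacd2, a dehydratase of the elongation cycle, stood at 14.4 and 26.0 TPM. Their log2 ratios were 1.05, 0.68, 1.64 and 0.98, while those of the other activating enzymes Acsl1, Acsl4 and Acsl5 were 0.20, -0.05 and -0.07 and were not called. Mylip, an LXR target that marks lipoprotein receptors for degradation, stood at 15.4 and 30.0 TPM (log2 ratio 0.95). Fnta, the shared subunit of the farnesyl and geranylgeranyl transferases, stood at 41.9 and 74.6 TPM (log2 ratio 1.00), while Fntb, its partner in the former, stood at 22.6 and 16.6 TPM (log2 ratio -0.32). In fatty acid oxidation, Cpt1a, which admits long chains to mitochondria, stood at 58.1 and 39.3 TPM (log2 ratio -0.59), and Acadl, a dehydrogenase of the cycle, at 18.3 and 34.7 TPM (log2 ratio 0.92). Each of these other than the 3 named as not called was called by the exact binomial test between the 2 technical libraries. That test called 34.1% of all genes tested, 21.4% higher and 12.7% lower. With edgeR's exactTest and an assumed dispersion of 0.04, 0 genes of each related list were called higher and 0 lower, against 0.707% of all genes called.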
